A study of Homo sapiens with 288 samples.

Results

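Epithelial adhesion and tight junction genes were examined in single cells derived from H1, an established human embryonic stem cell line, and differentiated either to endothelial cells (EC) or to trophoblast-like cells (TB). The genes were found by symbol in the count tables. Of the 9 genes listed, 7 had a row among the 17492 protein-coding genes: the cadherin CDH1, the adhesion molecule EPCAM, the claudins CLDN3 and CLDN7, and the desmosome genes DSP, DSG2 and PKP2. CLDN4 and CLDN6 were not analysed here.

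The EC received E8 medium with BMP4 at 5 ng/ml and Activin A at 25 ng/ml for 2 days, followed by VEGF and WNT for 3 days. The TB were kept in E8 without FGF2, with BMP4 at 50 ng/ml and the inhibitor SB431542. Full-length cDNA of 45 EC and 51 TB was equalized across cells before library preparation and sequenced in 3 experiments. In EQ the libraries were pooled by equal volume, in EQ-Vary the pooled volume of each library was scaled, and EQ-75% repeated the equal-volume pool at lower depth, so that the 288 libraries came from the same 96 cells. Every group therefore shares the H1 genome, the equalization and the platform, and all EC and all TB come from 1 line with no separate cultures named. Each cell type was a single sample, so no test between EC and TB was made, and every SD below is between cells.

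Epithelial cells hold on to one another through junctions arranged along their lateral membranes. Adherens junctions are built on classical cadherins, whose cytoplasmic tails bind catenins, and desmosomes are built on desmosomal cadherins linked by plakophilins, plakoglobin and desmoplakin to keratin filaments. Tight junctions seal the space between cells through claudins and occludin, which are held by cytoplasmic scaffold proteins. Trophoblast is the first epithelium of the embryo, whereas endothelial cells use their own cadherin, CDH5 (VE-cadherin), and their own claudin, CLDN5. The repressors ZEB1, ZEB2 and SNAI1 are known to silence epithelial junction genes by binding the E-box CACCTG.

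The promoters of 4 of the 7 genes were in the RefSeq set (GRCh38.p14), each with 250 bases before and 50 bases after the annotated start, and they are shown because these genes were all higher in TB while the E-box repressors were higher in EC. CDH1, EPCAM and PKP2 had no entry. Capitals mark CACCTG on either strand (CACCTG or CAGGTG). The DSP window is chr6:7541421-7541720 (+), the DSG2 window chr18:31497927-31498226 (+), the CLDN3 window chr7:73770221-73770520 (-) and the CLDN7 window chr17:7262429-7262728 (-).
DSP: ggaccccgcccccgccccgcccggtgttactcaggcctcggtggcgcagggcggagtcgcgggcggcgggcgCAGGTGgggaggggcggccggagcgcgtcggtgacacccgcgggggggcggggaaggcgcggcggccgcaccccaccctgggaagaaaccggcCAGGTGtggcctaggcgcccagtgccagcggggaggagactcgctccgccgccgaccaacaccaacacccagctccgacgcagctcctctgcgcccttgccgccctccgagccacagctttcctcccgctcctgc
DSG2: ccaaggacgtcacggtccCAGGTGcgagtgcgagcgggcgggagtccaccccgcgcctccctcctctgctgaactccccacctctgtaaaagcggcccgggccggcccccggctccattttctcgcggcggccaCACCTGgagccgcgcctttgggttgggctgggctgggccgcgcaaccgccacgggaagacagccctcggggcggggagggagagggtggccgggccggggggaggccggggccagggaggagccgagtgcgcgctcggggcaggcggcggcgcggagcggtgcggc
CLDN3: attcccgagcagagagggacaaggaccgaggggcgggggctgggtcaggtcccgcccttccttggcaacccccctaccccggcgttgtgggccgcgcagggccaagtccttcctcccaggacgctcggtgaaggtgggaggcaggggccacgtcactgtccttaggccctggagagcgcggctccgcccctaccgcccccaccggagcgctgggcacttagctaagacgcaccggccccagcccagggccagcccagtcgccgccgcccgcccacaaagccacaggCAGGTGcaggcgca
CLDN7: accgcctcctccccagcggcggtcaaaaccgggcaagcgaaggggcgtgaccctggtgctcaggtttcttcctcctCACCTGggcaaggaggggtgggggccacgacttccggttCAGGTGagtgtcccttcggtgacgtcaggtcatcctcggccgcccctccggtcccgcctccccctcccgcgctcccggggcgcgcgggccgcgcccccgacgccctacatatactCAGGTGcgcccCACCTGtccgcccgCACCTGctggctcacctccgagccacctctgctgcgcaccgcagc
The E-box occurred 2 times in the DSP window, at -178 and -85 from the start, 2 times in the DSG2 window, at -232 and -116, and 1 time in the CLDN3 window, at 37 within the transcript. The CLDN7 window held 5, at -174, -135, -20, -9 and 6, while the window of a second annotated CLDN7 start, chr17:7263164-7263463 (-), held 0. Of 34943 promoter windows of the same length, 20.6% had at least 1 E-box, 3.50% had at least 2 and 0.0916% had at least 5. Motifs of epithelial regulators were searched in the same windows. GCCNNNGGC, a TFAP2 motif found in 23.2% of all windows, occurred 2 times for CLDN3 and 1 time for DSG2, and 1 of the CLDN3 matches overlapped its E-box. CCGGTT (either strand), a grainyhead motif found in 7.22% of all windows, occurred 1 time for DSP and 2 times for CLDN7. These matches describe letters in the windows only, since binding was not measured.

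After quality control, EQ held 38 EC with 471578 to 3966798 counts and 48 TB with 365536 to 3479243 counts, and passing libraries of all 3 experiments ranged from 291346 to 6345155. The cell types matched their labels by most markers. Of 13 endothelial markers, led by KDR, PECAM1 and FLT1, 13 were at least 2-fold higher in EC, with a summed level of 363 to 8729 CPM in EC and 3.43 to 134 CPM in TB. Of 13 trophoblast markers with at least 1 CPM in either type, led by KRT18, KRT8 and VTCN1, 11 were at least 2-fold higher in TB and 0 in EC, with a summed level of 114 to 3966 CPM in EC and 3300 to 18733 CPM in TB. Of the defining trophoblast markers, CDX2 was detected in 1 TB and TP63 in 5, and GATA2 averaged 38.2 CPM in TB and 65.7 CPM in EC. Of 8 mesenchymal genes, 4 were at least 2-fold higher in TB and 1 in EC, with LUM at 3042 CPM in TB and 10.2 CPM in EC. Pluripotency genes were at least 2-fold higher in TB for 1 of 7 and in EC for 4, endoderm genes for 1 of 3 and 2, and blood genes for 0 of 2 and 1. Several of these calls rested on single cells: FOXA1 lost its TB call without TB cell 33 and RUNX1 its EC call without EC cell 10, and AFP was counted in 1 EC. The cell labelled EC 15 went partly against its label. It was highest among EC for NANOG (1502 CPM), POU5F1 (384 CPM), TFAP2C (995 CPM) and KRT8 (1696 CPM), with KDR at 51.3 CPM. Other markers went the other way. Its PECAM1 (99.6 CPM) and CDH5 (34.4 CPM) were above the highest TB values of 77.4 and 8.21 CPM. Its CDH1 was 15.4 CPM, and SOX2 was at 0 in all EC. Without EC 15, 2 of the 7 pluripotency genes were at least 2-fold higher in EC, as NANOG and POU5F1 no longer were. Because libraries of both types were sequenced together, the lowest shares seen for any abundant gene were measured. Among 956 genes of at least 200 CPM in TB, the lowest level in EC was 0.228% of that in TB, and 23 genes were under 0.5%.

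All 7 junction genes had a higher mean in TB than in EC in EQ. CPM is counts per 1000000 of a cell's total, and 7 of 7 genes were at least 2-fold higher in TB, where 27.2% of the 12751 genes with at least 1 CPM in either type were. None was 2-fold higher in EC, a call made for 19.7% of genes. The median log2 ratio of TB over EC was 4.47 for the 7 genes and 0.075 for all genes compared. The genes fell along a wide range, from CLDN7 and DSP, which were at 40.4% and 32.8% of the TB level in EC, to EPCAM at 0.614% and CLDN3 at 0.

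**Figure D1:**
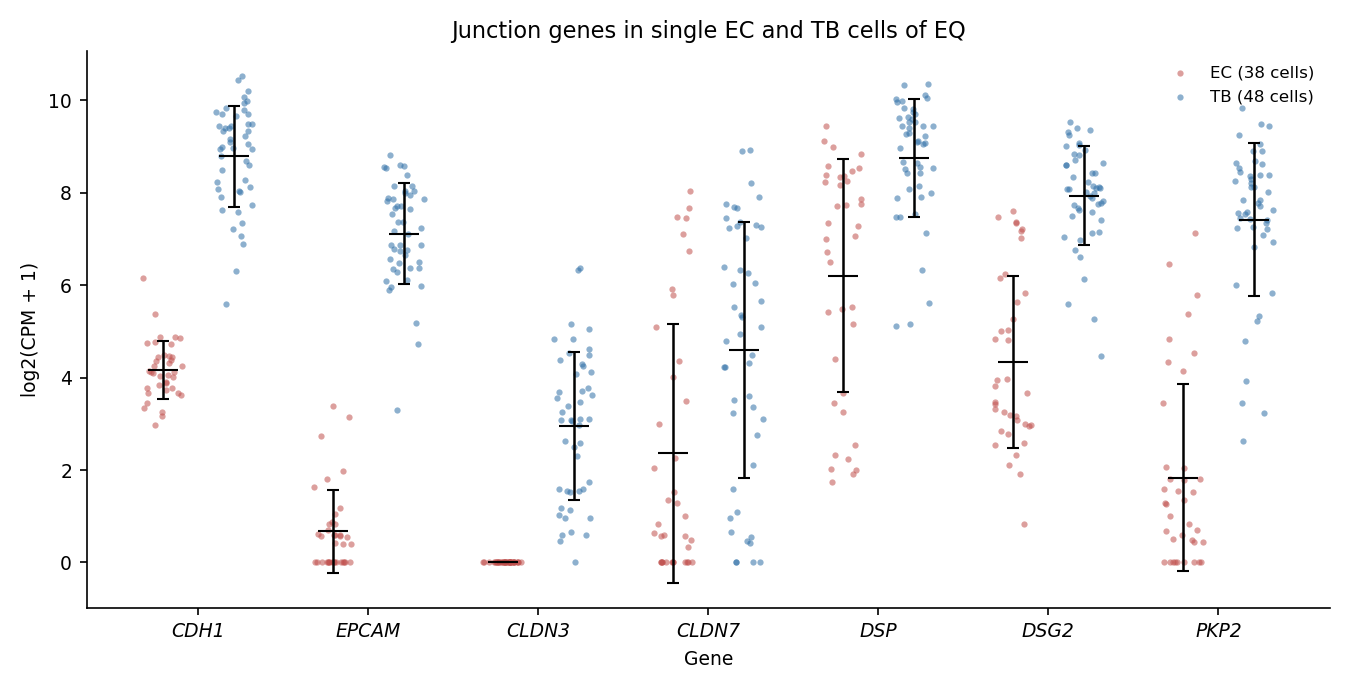
Level of each junction gene, as log2(CPM + 1), in each of 38 EC (red) and 48 TB (blue) of EQ; each point is a cell, and black bars give the mean and the SD between cells. CDH1 and EPCAM in EC sit below nearly all TB cells, CLDN3 is at 0 in every EC, and CLDN7 overlaps over most of its range.

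CDH1 encodes E-cadherin, the classical cadherin of epithelial adherens junctions (chr16:68737292-68835537, plus strand). It ranged from 47.4 to 1474 CPM in TB with a median of 522 CPM, and from 6.80 to 69.9 CPM in EC with a median of 16.4 CPM. The groups hardly overlapped, since 1 TB (cell 46) was at or below the highest EC (cell 23). The mean was 558 CPM ± 343 (SD, n = 48 cells) in TB and 18.9 CPM ± 11 (SD, n = 38 cells) in EC, a 29.5-fold difference. CDH1 was counted in 38 of 38 EC, and its level in EC was 3.39% of that in TB, above the lowest shares of abundant genes. Of the EC values above 0, 97.4% differed from a whole number by more than 0.001, as can occur when reads are divided between genes. The share was 100% in TB, and it was 55.3% in EC for DSP, whose transcript matched no other gene. The longest CDH1 transcript has 4761 windows of 51 bases, the length to which reads were trimmed, and 58 of them matched transcripts of 14 other genes with up to 2 mismatches, all beyond the coding sequence. The part of such reads in the EC level was not tested.

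Other classical cadherins divided between the cell types. CDH3 (P-cadherin) had a mean of 486 CPM ± 299 (SD) in TB and 21.1 CPM ± 32 (SD) in EC, a 23-fold difference. CDH5 averaged 406 CPM ± 399 (SD) in EC and 0.752 CPM ± 1.27 (SD) in TB, 540-fold lower, and no TB reached 10 CPM. CDH2 (N-cadherin) had a mean of 58.3 CPM ± 66.9 (SD) in EC and 25.6 CPM ± 51 (SD) in TB, a 2.28-fold difference smaller than the SD between EC. Of 5 other classical cadherins with at least 1 CPM in either type, 1 was at least 2-fold higher in TB and 3 in EC, the third of these being CDH11 at 98.0 CPM ± 189 (SD) in EC and 35.7 CPM ± 88.9 (SD) in TB. The median log2 ratio was -1.19.

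EPCAM, a membrane glycoprotein of most simple epithelia that binds the same protein on the neighbouring cell (chr2:47345158-47387601, plus strand), showed the largest ratio of the junction genes counted in both types in EQ. It ranged from 8.79 to 453 CPM in TB with a median of 147 CPM, and from 0 to 9.46 CPM in EC with a median of 0.403 CPM. Only TB cell 8 was below the highest EC, cell 15. The mean was 174 CPM ± 109 (SD, n = 48 cells) in TB and 1.06 CPM ± 2.13 (SD, n = 38 cells) in EC, a 163-fold difference. Without EC cell 15 the EC mean was 0.838 CPM ± 1.63 (SD, n = 37 cells) and the difference 207-fold. EPCAM was counted in 22 of 38 EC (57.9%, exact binomial 95% interval 40.8% to 73.7%), but 13 of those had a single count and 3 had at least 5. CDH5, a gene of the other lineage with a higher mean in its own type (406 CPM in EC), was counted in 31 of 48 TB (64.6%). Median totals were 2025136 counts in EC and 1968563 in TB. The EPCAM mean in EC was 0.614% of that in TB, and the CDH5 mean in TB was 0.185% of that in EC. Among genes of at least 200 CPM in TB, a level EPCAM did not reach, the lowest share in EC was 0.228%. The highest EC were cells 15, 27 and 23, at 9.46, 7.90 and 5.71 CPM, and the highest was 12.7 CPM (cell 15) in EQ-Vary and 10.6 CPM (cell 27) in EQ-75%. Across EC, log2(CPM + 1) of EPCAM in EQ had a Pearson correlation of 0.73 with EQ-Vary (38 cells). With EQ-75% (37 cells) the correlation was 0.54, and all values were read from the same cDNA. The part of reads from other libraries in the EC level was not tested. No window of the EPCAM transcript matched another gene.

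Partners of EPCAM were mostly higher in TB. SPINT2, a membrane protease inhibitor, averaged 515 CPM ± 264 (SD) in TB and 78.9 CPM ± 119 (SD) in EC, and SPINT1 averaged 96.8 CPM ± 71.9 (SD) and 11 CPM ± 30.6 (SD), or 6.93 CPM in EC without cell 13. CD44, an adhesion receptor known to associate with EPCAM, ran the other way, with 277 CPM ± 475 (SD) in EC and 0.591 CPM ± 0.924 (SD) in TB. Of 4 partners compared, 3 were at least 2-fold higher in TB and 1 in EC.

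The claudins CLDN3 and CLDN7 differed from each other, since CLDN3 was at 0 in EC of EQ and CLDN7 was high in some cells of both types. CLDN3, a sealing claudin (chr7:73768997-73770270, minus strand, a single exon), ranged from 0 to 82.1 CPM in TB with a median of 7.54 CPM and was counted in 47 of 48 TB. It was at 0 in all 38 EC, which allows up to 7.89% of cells with a count in such libraries (exact binomial upper bound 9.25%) and sets no limit on low expression. Its TB mean of 12.7 CPM ± 17 (SD, n = 48 cells) was at least 332-fold higher than the level of 3 counts over all EC. In the repeats of the same cells, EC held 3 CLDN3 counts, in 3 of 38 cells, in EQ-Vary, a ratio of 370 (exact 95% interval 126 to 1797), and 1 count in EQ-75%, a ratio of 736 (interval 132 to 29091). Of 1224 windows of CLDN3, 7 matched its relative CLDN9, which had a similar pattern, with 18 CPM ± 12.4 (SD) in TB and 0.198 CPM ± 0.821 (SD) in EC, or 0.0826 CPM without EC cell 15.

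CLDN7, a claudin known to bind EPCAM (chr17:7259903-7263983, minus strand), did not separate the cell types. It ranged from 0 to 487 CPM in TB with a median of 31.5 CPM, and from 0 to 261 CPM in EC with a median of 0.889 CPM. Both types held cells without CLDN7, 4 of 48 TB and 12 of 38 EC, and both held cells of at least 100 CPM, 14 TB and 6 EC. The mean was 82.9 CPM ± 115 (SD, n = 48 cells) in TB and 33.5 CPM ± 67.2 (SD, n = 38 cells) in EC, a 2.47-fold difference smaller than the SD between TB. In EC the 3 highest cells carried 50.4% of the summed CPM, with cell 23 at 261 CPM and cell 17 at 204 CPM. No window of CLDN7 was shared with another gene.

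Among 11 other claudins with at least 1 CPM in either type, 5 were at least 2-fold higher in TB and 2 in EC, with a median log2 ratio of 0.15. CLDN11 averaged 64.3 CPM ± 188 (SD) in EC and 7.44 CPM ± 10.6 (SD) in TB, and without EC cell 43, at 972 CPM, the EC mean was 39.7 CPM. CLDN10 averaged 59.7 CPM ± 70.6 (SD) in TB and 13.9 CPM ± 23.9 (SD) in EC. CLDN12 averaged 31 CPM ± 68.7 (SD) in EC and 20.6 CPM ± 39.2 (SD) in TB, a difference within the SD of either type. The endothelial claudin CLDN5 was low, at 4.84 CPM ± 12 (SD) in EC with 16 of 38 cells counted, and it was at 0 in all 48 TB, so that EC was at least 156-fold higher.

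The desmosome genes had 4.51% to 32.8% of their TB mean in EC. DSP encodes desmoplakin, which ties desmosomes to keratin (chr6:7541338-7586714, plus strand). It ranged from 33.6 to 1307 CPM in TB with a median of 549 CPM, and from 2.32 to 697 CPM in EC with a median of 144 CPM. DSP was counted in every cell of both types, yet EC spread widely, with 9 of 38 below 10 CPM and 22 at 100 CPM or more. The mean was 567 CPM ± 337 (SD, n = 48 cells) in TB and 186 CPM ± 183 (SD, n = 38 cells) in EC, a 3.04-fold difference, and 31 TB were at or below the highest EC. No DSP window was shared with another gene.

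DSG2, the desmosomal cadherin of simple epithelia (chr18:31498177-31549008, plus strand), was intermediate. It ranged from 21.3 to 740 CPM in TB with a median of 270 CPM, and from 0.793 to 194 CPM in EC with a median of 12.4 CPM. The mean was 303 CPM ± 179 (SD, n = 48 cells) in TB and 44.5 CPM ± 59.1 (SD, n = 38 cells) in EC, a 6.80-fold difference, with 13 TB at or below the highest EC. DSG2 had the most shared sequence, as 187 of 5647 windows matched other transcripts, all beyond the coding sequence and 59 of them exactly. All EC values of DSG2 were fractional by more than 0.001, as were 97.9% of the TB values. The part of shared reads in the 17 EC below 10 CPM was not tested.

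PKP2, a plakophilin that links desmosomal cadherins to desmoplakin (chr12:32790745-32896798, minus strand), was low in most EC and high in a few. It ranged from 5.17 to 907 CPM in TB with a median of 213 CPM, and from 0 to 138 CPM in EC with a median of 1.42 CPM. EC cell 12, the most deeply sequenced EC with 3966798 counts, was highest for both PKP2 and DSG2, at 138 and 194 CPM. The mean was 260 CPM ± 198 (SD, n = 48 cells) in TB and 11.7 CPM ± 27.6 (SD, n = 38 cells) in EC, a 22.2-fold difference, and the 3 highest EC carried 62.8% of the EC sum. Of 4311 windows, 61 within the coding sequence matched other transcripts, 53 of them exactly, and the part of such reads in the low EC values was not tested.

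Other desmosome genes were higher in TB or differed by less than 2-fold. DSC2, the partner cadherin of DSG2, averaged 362 CPM ± 253 (SD) in TB and 178 CPM ± 273 (SD) in EC, and JUP (plakoglobin), shared by desmosomes and adherens junctions, averaged 134 CPM ± 105 (SD) and 109 CPM ± 113 (SD). Neither difference exceeded the SD between cells. PERP, a desmosome-associated membrane protein, averaged 294 CPM ± 147 (SD) in TB and 35.6 CPM ± 60.3 (SD) in EC. Of 9 genes compared, 5 were at least 2-fold higher in TB and 0 in EC, with a median log2 ratio of 1.02. DSC1 and DSC2 fell short of 2-fold without their highest TB, at 1.70 and 1.94, and without EC cell 15 the count was 4 of 9.

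Levels were compared between genes only after dividing by the length of the longest coding transcript. In TB the order of mean CPM per kb was CDH1 at 116, EPCAM at 112, PKP2 at 59.6, DSP at 58.4, DSG2 at 53.2, CLDN7 at 43.1 and CLDN3 at 9.98, and no neighbours in this order differed by more than the SD of the higher gene. In EC the order was DSP at 19.2, CLDN7 at 17.4, DSG2 at 7.82, CDH1 at 3.93, PKP2 at 2.69, EPCAM at 0.688 and CLDN3 at 0, so CDH1 and EPCAM, highest in TB, were behind DSP, CLDN7 and DSG2 in EC. Neighbours in the EC order also lay within the SD of the higher gene.

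**Figure D2:**
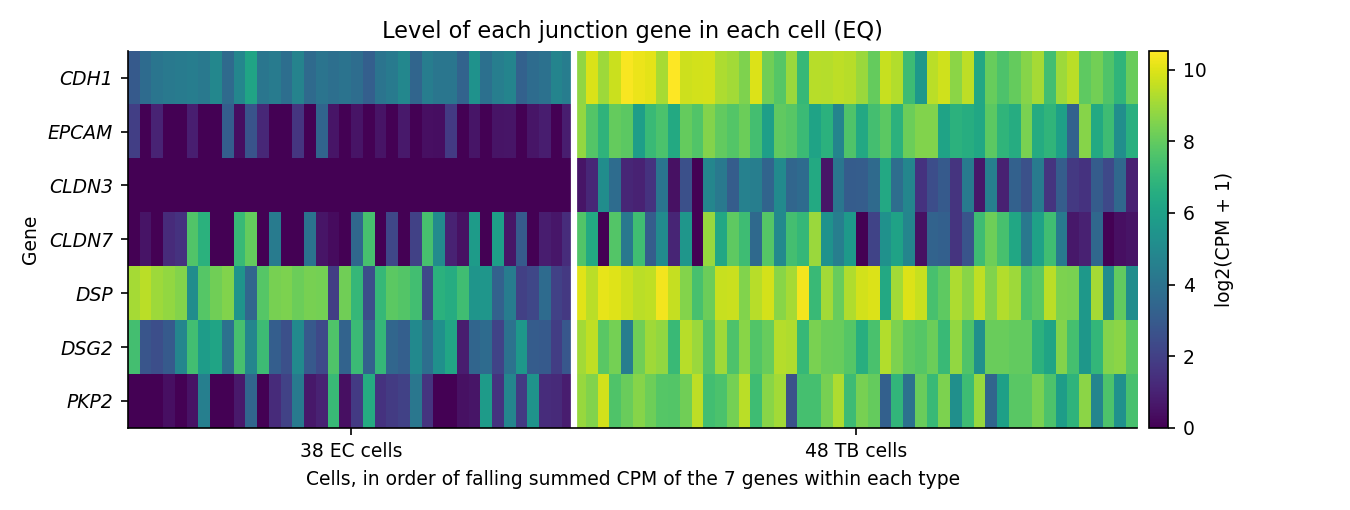
Level of the 7 junction genes, as log2(CPM + 1) on the colour scale, in each cell of EQ; columns are 38 EC and then 48 TB, ordered within each type by falling summed CPM of the genes. In EC the bright row is DSP, with scattered cells high in CLDN7, DSG2 or PKP2, whereas TB columns are bright in most rows except CLDN3 and CLDN7.

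Single TB carried nearly the whole set, and EC carried part of it. A gene counted as detected when its rounded count was at least 1. TB had 6.90 ± 0.37 (SD, n = 48 cells) of the 7 genes detected, and 44 of 48 TB had all 7. EC had 5.03 ± 0.82 (SD, n = 38 cells) detected, with a maximum of 6. At 10 CPM, a level chosen after the data had been seen, TB had 6 ± 0.77 (SD) and EC 2.71 ± 0.98 (SD) of the genes, and 36 TB but 0 EC had at least 6. The summed level of the 7 genes ranged from 822 to 3175 CPM in TB with a median of 1909 CPM, and from 32.5 to 727 CPM in EC with a median of 311 CPM. The sums did not overlap in EQ, but in EQ-75% the highest EC, cell 1, was at 819.5 CPM and the lowest TB at 801 CPM.

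The 3 experiments read the same amplified cDNA of each cell, so losses before amplification are shared. The paper states that EQ-75% repeated the whole EQ experiment, so differences between these cover library preparation and sequencing. For EQ-Vary it names changed pooling volumes, and whether its libraries were also prepared anew is not clear. Its differences from EQ may therefore cover pooling and sequencing only. The ratio of TB over EC differed little between the experiments for 4 genes, with CDH1 at 29.5, 28.4 and 32.5 in EQ, EQ-Vary and EQ-75%, CLDN7 at 2.47, 2.04 and 2.64, DSP at 3.04, 3.06 and 2.96 and DSG2 at 6.80, 6.70 and 7.40. PKP2 was at 22.2, 23.3 and 14.3, and the EC mean of EQ-75% included cell 1 at 273 CPM, a cell that did not pass in EQ and without which the ratio was 22.2. EPCAM was at 163, 123 and 220, all resting on 51 to 80 counts in EC. All 7 genes were at least 2-fold higher in TB in each experiment.

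Cells above 10 CPM in EQ were mostly the same cells in EQ-75%. Of 37 EC passing in both, CLDN7 was above 10 CPM in both libraries in 11, in EQ alone in 1 and in EQ-75% alone in 0. For PKP2 the counts were 8, 0 and 0, and for DSP 28, 1 and 1. EPCAM in EC differed, since detection was shared by both libraries in 8 of 37 cells, was seen in EQ alone in 14 and in EQ-75% alone in 6. The SD between libraries of the same cell, taken as the SD of the difference of log2(CPM + 1) over the square root of the number of libraries, was 0.24 for DSP in EC against an SD of 2.46 between cells. For EPCAM in EC it was 0.61 against 0.90, and for CDH1 in EC 0.30 against 0.61. In TB the SD between cells was over the library SD by factors of 2.71 for CLDN3 to 10.8 for CDH1.

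**Figure D3:**
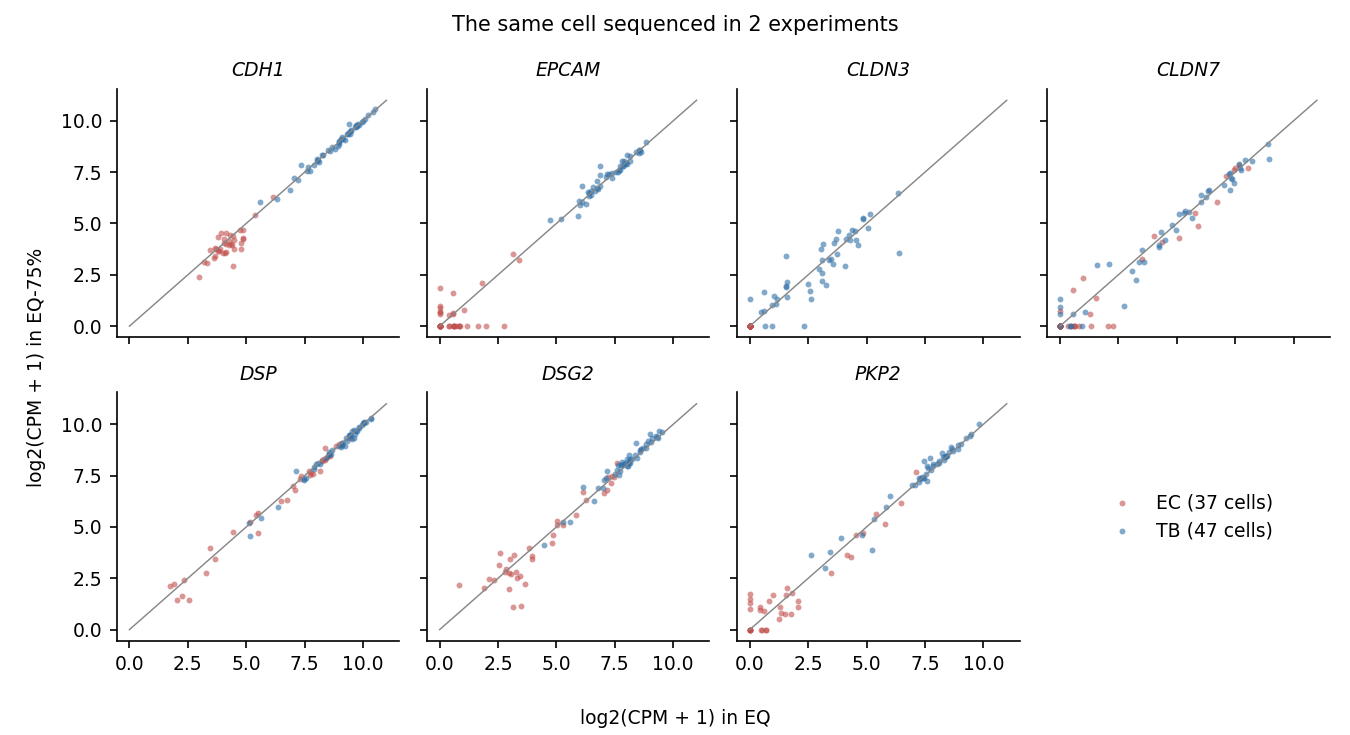
Level of each junction gene in EQ (horizontal) and EQ-75% (vertical), both as log2(CPM + 1), for 37 EC (red) and 47 TB (blue) passing in both; the line marks equal values. DSP, CLDN7 and PKP2 keep high and low EC apart in both libraries, while EPCAM in EC scatters near 0.

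Fewer junction genes were detected per EC at the lower depth. Within cells, EC had 0.43 ± 1.02 (SD, n = 37 cells) more genes detected in EQ than in EQ-75%, with 19 cells higher in EQ, 7 lower and 11 equal, and the mean lay within the SD. TB differed by 0.043 ± 0.51 (SD, n = 47 cells), with 38 cells equal. Median totals of EC were 2025136 counts in EQ and 1499256 in EQ-75%, and with each library thinned to 250000 counts the EC difference was 0.14. Against EQ-Vary, EC differed by -0.079 ± 1.10 (SD, n = 38 cells).

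The junction genes did not share a pattern of cell-to-cell spread. The variance of log2(CPM + 1) was divided by the trend of all genes at the same mean. In EC the ratio was 1.82 for DSP and 1.45 for CLDN7, but 0.079 for CDH1, so that 1 of 6 genes reached 1.5, where 16.5% of 12723 genes did. The CDH1 ratio in EC was lower than that of all but 0.0707% of genes, and it was 0.13 in EQ-Vary and 0.085 in EQ-75%. CDH1 averaged 18.9 CPM there, 97.4% of its values were fractional, and 58 of its windows were shared with other genes. The part of shared reads in this low ratio was not tested. In TB the ratio was 1.65 for CLDN7, 1.40 for DSP, 1.36 for PKP2 and 1.06 for CDH1, and 1 of 7 genes reached 1.5, where 11% of 12977 did. EPCAM, DSG2 and, in TB, CLDN3 lay below the trend in both types where fitted, at 0.37 to 0.72. The median ratio was 0.79 in EC and 1.06 in TB, against 1.03 and 1.02 for all genes.

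**Figure D4:**
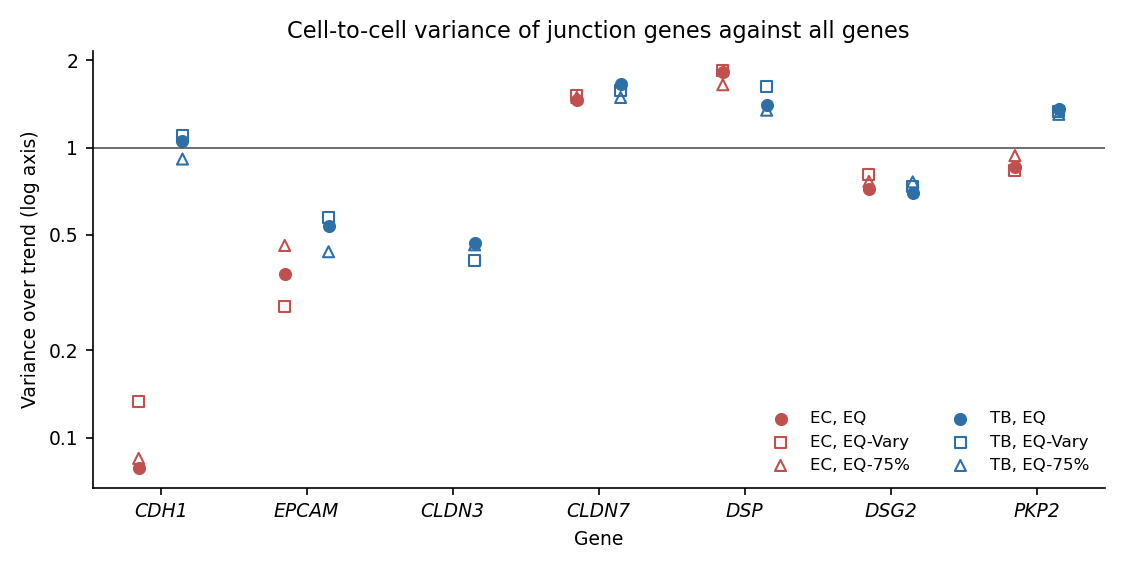
Variance of log2(CPM + 1) between cells divided by the trend over all genes of the same mean (log axis), for each junction gene in EC (red) and TB (blue); filled circles are EQ, open squares EQ-Vary and open triangles EQ-75%, and the line marks the trend. CDH1 in EC lies far below 1 in all 3 experiments, and DSP and CLDN7 lie above it in both cell types.

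Within a cell type, correlations between the genes were mostly weak and went both ways. Over 48 TB, the median Spearman correlation of the 21 gene pairs was 0.075, from -0.23 to 0.25, and over 38 EC the median of 15 pairs was -0.013, from -0.52 to 0.24, CLDN3 being constant there. The points share library and depth, and the median correlation of these genes with all other genes was 0.0031 in TB and 0.033 in EC. In TB no pair exceeded 0.3 in EQ, and 1 of 21 did in EQ-Vary, CLDN7 with DSP at 0.32. EPCAM with DSG2 in TB was at 0.25, 0.26 and 0.30 in EQ, EQ-Vary and EQ-75%. In EC, 0 of 15 pairs exceeded 0.3 in EQ and 2 of 21 did in EQ-Vary, EPCAM with DSP at 0.46 (-0.093 in EQ) and CLDN3 with PKP2 at 0.37, and CLDN7 with DSP was at -0.39, -0.26 and -0.23. The lowest pair in EQ, DSP with PKP2 in EC, was at -0.52 in EQ but -0.23 in EQ-Vary and -0.26 in EQ-75%. In TB, DSP ran against the keratin KRT8 at -0.44, -0.41 and -0.45 in EQ, EQ-Vary and EQ-75%, and PKP2 ran with the epithelial regulator GRHL2 at 0.32, 0.35 and 0.37; the pairs named were picked after their values were seen.

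The genes most like the mean of the 7 junction genes were sought among 9476 genes in TB and 8893 in EC. In TB they were SERINC1 at a Spearman correlation of 0.59, the polarity gene PARD3 at 0.56, TLE1 at 0.51, SH3BGRL2 at 0.49 and HMGN3 at 0.48 over 48 cells. In EC they were GNG7 at 0.69, EDC4 at 0.63, ANKH at 0.57, HEXA at 0.57 and PPP1R12A at 0.56 over 38 cells. These genes were picked as the highest of all compared, and how high the top values would be by chance was not tested. CLDN3 was constant in EC, so the EC order rests on the other junction genes. In EQ-75% the TB values were 0.41 to 0.62 and the EC values 0.35 to 0.66, with GNG7 at 0.36. The libraries of EQ-75% come from the same cells.

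Most adherens junction partners differed by less than 2-fold, more tight junction scaffold and membrane genes were higher in TB, and epithelial regulators and repressors stood far apart. Of 10 catenin, vinculin and nectin partners of adherens junctions, 1 was at least 2-fold higher in TB and 0 in EC, with a median log2 ratio of 0.092. CTNNB1 (beta-catenin) averaged 1420 CPM in TB and 1318 CPM in EC, CTNNA1 425 and 506 CPM and VCL 240 and 381 CPM, and NECTIN4 was the gene that passed, at 109 CPM ± 138 (SD) in TB and 13.7 CPM ± 15.0 (SD) in EC. NECTIN1 and NECTIN3 also passed 2-fold in TB without 1 EC each, at 4.57 without cell 28 and 2.16 without cell 23. Of 18 tight junction scaffold and membrane genes, 11 were at least 2-fold higher in TB and 2 in EC, with a median log2 ratio of 1.38. PARD6B, a polarity protein, averaged 1054 CPM ± 498 (SD) in TB and 95.6 CPM ± 204 (SD) in EC. F11R (JAM-A) was 2.37-fold higher in EC, at 884 CPM ± 577 (SD) against 373 CPM ± 189 (SD), and the scaffold TJP1 (ZO-1) averaged 417 CPM in EC and 395 CPM in TB.

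Of 11 epithelial regulators with at least 1 CPM, 11 were at least 2-fold higher in TB, with a median log2 ratio of 6.41. The gene at the median was low, at 3.26 CPM in TB with 9 of 48 TB counted. Its EC mean, from 1 cell, was set to the level of 3 counts over all EC. TFAP2C averaged 388 CPM ± 379 (SD) in TB and 29.3 CPM ± 161 (SD) in EC, where the mean was 3.20 CPM without cell 15. GRHL2 averaged 326 CPM ± 215 (SD) and 0.848 CPM ± 0.902 (SD), and TFAP2A averaged 229 CPM ± 143 (SD) and 70.7 CPM ± 108 (SD). Of 4 repressors of the epithelial state, 3 were at least 2-fold higher in EC and 0 in TB, with a median log2 ratio of -7.79. ZEB2 averaged 207 CPM ± 213 (SD) in EC and 0.945 CPM ± 2.09 (SD) in TB, ZEB1 95.4 CPM ± 127 (SD) and 0.259 CPM ± 0.817 (SD), or 0.149 CPM without TB cell 40, and SNAI1 6.91 CPM ± 17.6 (SD) in EC, with 1 TB counted. Among EC of EQ, the Spearman correlation of ZEB1 or ZEB2 with a single junction gene ranged from -0.39 to 0.17 over 38 cells. The lowest, EPCAM with ZEB2, was -0.21 in both EQ-Vary and EQ-75%, and EPCAM had few counts in EC. PKP2 with ZEB2 was at 0.10, 0.35 and -0.010 in EQ, EQ-Vary and EQ-75%.

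**Figure D5:**
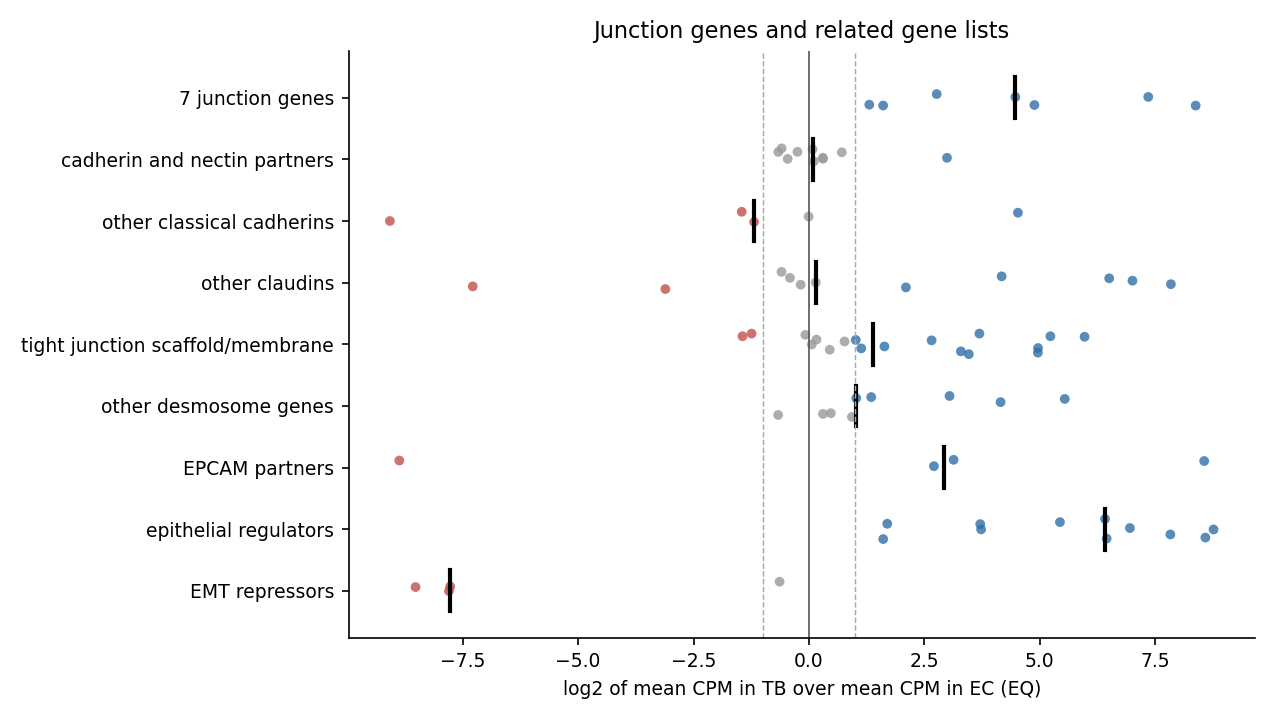
Log2 of the mean CPM in TB over the mean CPM in EC in EQ, for each gene with at least 1 CPM in either type (a point), by list; black bars are medians, dashed lines mark 2-fold, and blue and red points pass it in TB and EC. The 7 junction genes and the epithelial regulators lie to the right and the repressors other than TWIST1 to the left. The cadherin and nectin partners other than NECTIN4 lie around 0.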

How the data were processed

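Single cells of H1-derived EC and TB were profiled by full-length RNA-seq on microfluidic chips. The authors demultiplexed reads with CASAVA 1.8.2, trimmed them to 51 bp, aligned them with Bowtie 1.2.3 (at most 2 mismatches) to Ensembl's protein-coding gene set (GRCh38), and deposited expected counts per gene and cell from RSEM 1.2.31, 1 table for each experiment. The Ensembl release is not given in the sources used here. Reads that match several genes are divided between them, and PCR reads carried no molecular identifiers, so intervals cover counting error only.

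Expected counts were rounded, and cells were kept with a log10 total of at least 5.4 and at most 31% of counts in the 50 highest genes. CPM used each cell's total. Ratios are of mean CPM, with a group mean below the level of 3 counts over its summed total set to that level. Variance ratios used a lowess trend (fraction 0.3) over genes with a mean log2(CPM + 1) of at least 0.1. All genes entered each ratio and trend, and no test was run, since each cell type is 1 sample. Same-numbered cells were paired across experiments because they share cDNA: deviations of the same cell correlated at 0.855 or more over genes. Sequence windows used the GENCODE annotation and transcripts of GRCh38, with the longest coding transcript standing for each junction gene. That set may differ from the one used for mapping, so a gene without shared windows may still hold divided reads. Scripts were tested on simulated counts. Python 3.11.15, pandas 2.3.3, scipy 1.17.1, statsmodels 0.14.6, matplotlib 3.10.9, R 4.3.3 and scran 1.30.0 were used.

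The genes and lists were chosen with earlier results of these data known. Named genes were all junction genes found, up to 3 of the most abundant genes of each list, CLDN9, CDH2, CDH3, CDH5 and CLDN5, and the 5 genes most correlated with the junction mean in each type; the nectins, DSC1, TWIST1, CDX2, TP63, GATA2, POU5F1 and the pairs with KRT8, GRHL2, ZEB1 and ZEB2 were chosen after their values were seen, as was leaving out EC cell 15. A gene that the rule also named is not reported here. The design foresaw 36 gene pairs, of which 21 could be formed. Alternatives were the other experiments, other cell filters, scran size factors, medians, summed counts, unrounded counts, other detection levels and thinning, other pseudocounts, and other correlations.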

Additional observations from a re-analysis of the deposited data

How the results depend on the processing

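Of 117 values recomputed under alternatives, 110 stayed within the SD or within 1.5 times a count, and 7 did not. The 42 values of single genes were among those that stayed, and they kept their direction. For single genes that SD was the one between TB cells, which for CLDN7 was 2.77 against a log2 ratio of 1.31. A lost difference would also have stayed within it, so this count is a weak check. All 7 that moved were counts of junction genes detected per cell. The TB mean of 6.90 was 6.46 with at least 5 counts required, 6.47 with libraries thinned to 250000 counts and 6 at 10 CPM. The EC mean of 5.03 was 3.79, 3.775 and 2.71 in the same order, and 4.18 at 1 CPM; each of these settings requires more reads by construction. All 7 genes were at least 2-fold higher in TB under every alternative, and 5 were 4-fold higher. The median log2 ratio ranged from 3.84 in EQ-75% to 4.56 with all cells of at least 100000 counts, and was 4.48 without CDH1, DSG2 and PKP2 and 4.43 without EC cell 15.

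The difference of EQ and EQ-75% in genes detected was 0.43 in EC and 0.043 in TB with cells paired, and 0.41 and 0.036 with no replicate block. In EC it stayed positive, down to 0.027 at 1 CPM, while in TB it was -0.021 at 1 CPM. EQ minus EQ-Vary, a different contrast, was -0.079 in EC. All values were within the SD of the paired differences. The median pairwise correlation in EC, -0.013, was 0.046 in EQ-75%, 0.055 with all cells of at least 100000 counts and 0.024 by Pearson's measure. Of 112 genes of the lists, 19 changed their 2-fold call in EQ without the highest cell of a type, an alternative chosen after seeing the data. Calls for TB were lost for MARVELD3 (without TB cell 7) and CGA (TB 20), and for EC for ROBO4 (EC 25) and DNMT3B (EC 7), while PARD3 (EC 23), PKP4 (EC 19), GATA3 (EC 43), PDGFRA (EC 22) and PDGFRB (EC 37) gained one for TB and GATA2 (TB 14), TWIST1 (TB 42) and PDGFRA (TB 5) one for EC. The others stand in the report. Values of CLDN4 and CLDN6 were planned and not run. Counting depth limits EPCAM and CLDN3 in EC, which rest on 69 and 0 counts in EQ, and the cell types cannot be told apart from the single differentiation of each.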
